A study of Mus musculus with 16 samples.

Results

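Matrix glycoproteins and proteoglycans of the mouse colon mucosa were followed in 16 arrays of wild-type and Mcc-deficient animals. The set was chosen by gene symbol, with earlier results of these data known. It held 10 genes, Dcn, Lum, Bgn, Vcan, Fn1, Tnc, Postn, Sparc, Spp1 and Thbs1. The probe-to-gene table named a row for 9 of them, out of 30705 genes with a named row, and listed none for Spp1, which therefore has no value here. All 9 were tested without a filter on low values. All animals were male C57BL/6J mice that carried a floxed Mcc gene on both copies (Mccf/f). Mcc takes its name from mutations found in colorectal tumours. In the knockout (KO; VILcreMccf/f, also written MccΔIEC) Cre was driven by the villin promoter, so that the gene is lost in intestinal epithelium and kept in the stromal and immune cells of the mucosa. The siblings without Cre are called wild type (WT). From 6 weeks of age, mice received control feed or a diet with 320 ppm of sulindac, an anti-inflammatory drug that inhibits cyclooxygenases, for 10 weeks. The mucosal layer was taken from inflamed areas of the proximal colon of sulindac-fed mice, called lesions here, and from matching normal tissue of control-fed mice. There were 6 WT control, 3 WT lesion, 3 KO control and 4 KO lesion arrays. No array holds uninflamed mucosa of sulindac-fed mice, so the drug and the sampling of inflamed areas cannot be told apart.

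The matrix of the gut wall is built mainly by fibroblasts and related stromal cells. Small leucine-rich proteoglycans such as decorin, lumican and biglycan sit on collagen fibrils, and versican is a large proteoglycan that binds hyaluronan. Fibronectin gives cells an adhesive scaffold, while tenascin C, periostin, osteonectin and thrombospondin 1 are matricellular proteins, which act on cell adhesion, collagen assembly and growth factors more than they bear load. Most matricellular genes are known for low expression in resting adult tissue and for high expression in wounds and inflammation.

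The values are log2 expression after robust multi-array averaging (RMA), on which a difference of 1 is a doubling. RMA shrinks differences of dim rows and does not call detection, so levels are set only against the median of all rows, 4.96, and never between genes. Array medians lay between 4.90 and 5.05. A gene was called where limma's adjusted p, over all 30705 genes, was under 0.05. Whether the arrays are of separate animals is not in the labels, so p-values measure only the spread between these samples. In WT, Mcc itself ran from 7.06 to 7.35 in controls and from 7.09 to 7.40 in lesions. The KO arrays ran from 6.43 to 6.71 and from 6.39 to 6.47. Every KO array thus lay under every WT array. The difference was -0.60 on the control diet (adjusted p = 0.0830) and -0.79 in lesions (adjusted p = 0.00320), and with replicate numbers as a block the latter was -0.82 (adjusted p = 0.0757). Epithelial marker genes such as Epcam and Vil1 were high in every group, with a mean over 8 markers of 11.87 to 11.99 in all arrays. Within that list, Krt20 rose by 0.28 and Cdx2 fell by 0.36 in WT lesions. In KO lesions Krt20, Cdh1, Vil1 and Krt8 rose by 0.23 to 0.43, and Cdx2 and Muc2 fell by 0.64 and 0.47.

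The response of the matrix genes to sulindac lesions was broad. Of the 9 genes, 7 rose in WT lesions and 8 rose in KO lesions, and none fell. The genes were chosen with earlier results of these data known. The shares of all genes given beside them are therefore a description and no test of the set. Over all genes, 6.98% were called higher and 8.37% lower in WT (15.4% in all), and 8.99% higher and 12.1% lower in KO (21.1% in all). The median log2 change of the 9 was 1.61 in WT and 1.67 in KO, beside -0.06 and 0.01 over all genes. In 7 of 9 genes every WT lesion lay above every WT control, which held for 8.15% of all genes, and in 7 of 9 every KO lesion lay above every KO control, against 12.7% of all genes. Sample description numbers form a lower and a higher series. All KO controls carry higher numbers and all lesions lower ones, so within KO arrays the response and the number series cannot be told apart. WT controls hold 3 arrays of each, so a fit with the series as a covariate takes its effect from WT controls alone.

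**Figure D1:**
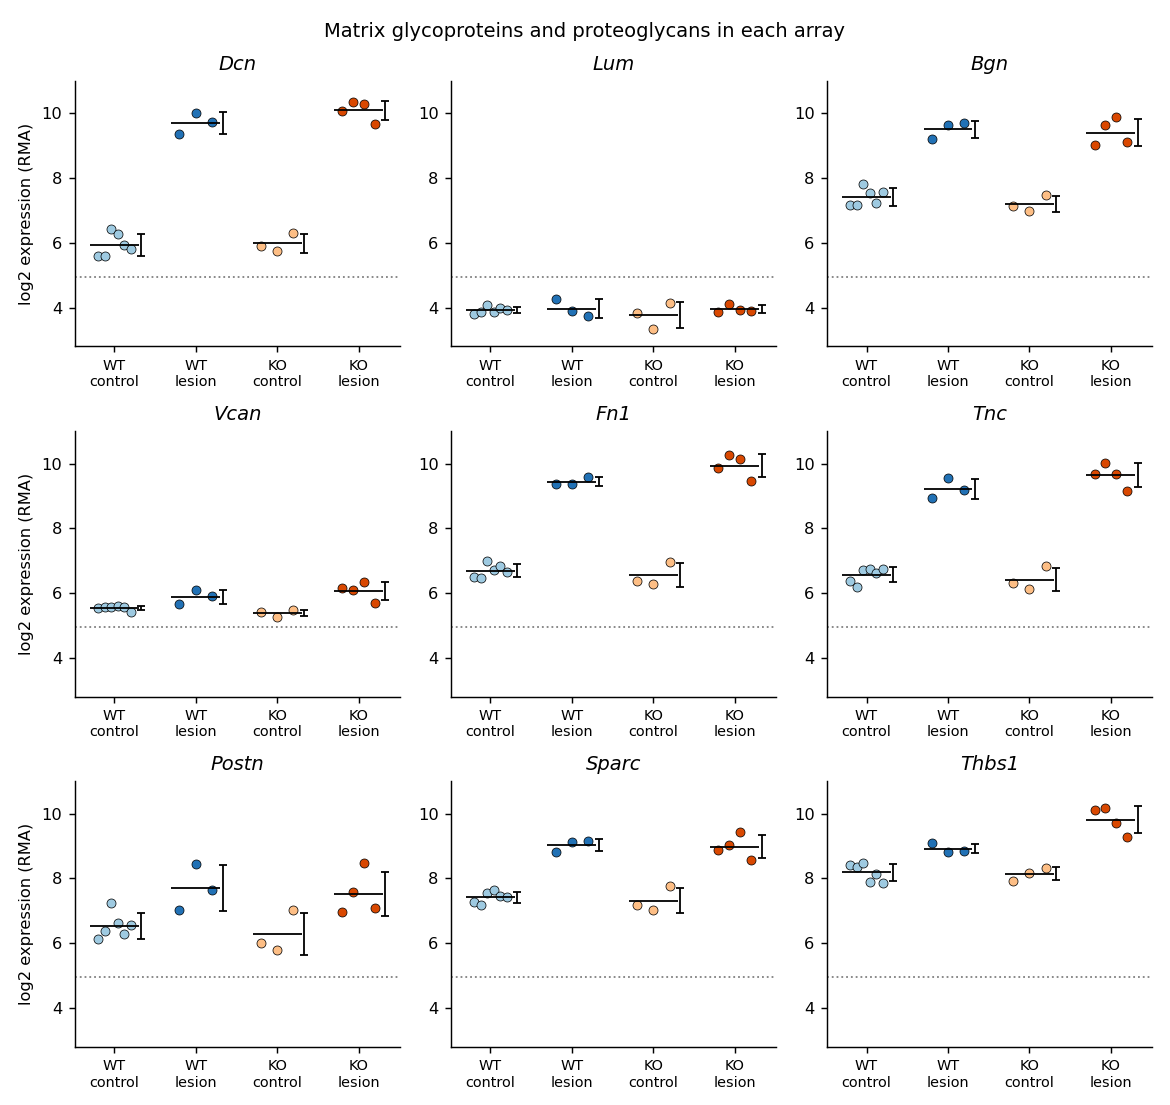
Log2 expression (RMA) of the 9 matrix genes in each array, by genotype and diet. Points are arrays, horizontal lines are group means, bars at the right of each group are 1 SD, and the dotted line is the median of all rows, 4.96. Dcn moved from 5.60 to 6.43 in WT controls to 9.36 to 10.02 in WT lesions, whereas Lum stayed under the dotted line in every array.

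Among the small leucine-rich proteoglycans, Dcn encodes decorin, which coats collagen fibrils and binds TGF-β. Dcn was between 5.60 and 6.43 in the 6 WT controls, with a median of 5.87, and at 9.36, 9.72 and 10.02 in the 3 WT lesions. In KO controls it was at 5.76, 5.89 and 6.31, and in KO lesions at 9.68, 10.06, 10.29 and 10.35. Every lesion stood far above every control in both genotypes, with no overlap. Dcn rose 13.6-fold in WT (log2 change 3.76, 95% interval 3.32 to 4.20, adjusted p = 2.32e-08). It rose 17.3-fold in KO (4.11, 3.63 to 4.59, adjusted p = 1.27e-08).

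Bgn encodes biglycan, the close relative of decorin, which also signals through Toll-like receptors when it is released. It was between 7.16 and 7.82 in WT controls, with a median of 7.38, and at 9.20, 9.64 and 9.69 in WT lesions. In KO it was at 7.0, 7.14 and 7.47 in controls and at 9.01, 9.11, 9.64 and 9.88 in lesions. The groups did not overlap, and the lesion levels of the genotypes were interleaved. Bgn rose 4.27-fold in WT (log2 change 2.09, 95% interval 1.67 to 2.51, adjusted p = 4.54e-06) and 4.62-fold in KO (2.21, 1.75 to 2.66, adjusted p = 3.15e-06).

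Lum encodes lumican, which helps to space collagen fibrils. In WT its row gave 3.80 to 4.09 for controls and 3.73, 3.90 and 4.28 for lesions. The KO controls gave 3.34, 3.82 and 4.14 and the KO lesions 3.88, 3.89, 3.94 and 4.12. All 16 values lay under the median of all rows, and all 4 groups overlapped. The log2 change was 0.04 in WT (95% interval -0.26 to 0.35, adjusted p = 0.874) and 0.19 in KO (-0.14 to 0.52, adjusted p = 0.460). Whether this row reads the lumican transcript in this tissue was not tested. In the RefSeq gene order Lum directly follows Dcn on chromosome 10, with Kera and Epyc next, which encode keratocan and epiphycan of the same family. The rows of Kera and Epyc averaged 2.69 and 2.97 over all arrays, also under the median of all rows. Their changes were -0.22 and -0.13 in WT and -0.04 and 0.10 in KO, none of them called, so Dcn was the called gene of this run of 4 family members.

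Vcan encodes versican, a large chondroitin sulfate proteoglycan of provisional matrix. It was between 5.41 and 5.60 in WT controls, with a median of 5.57, and at 5.65, 5.92 and 6.08 in WT lesions. The KO arrays gave 5.27, 5.41 and 5.47 in controls and 5.70, 6.08, 6.16 and 6.35 in lesions. Every lesion lay above every control of its genotype and only narrowly so in WT. In KO Vcan rose 1.61-fold (log2 change 0.68, 95% interval 0.42 to 0.95, adjusted p = 0.00101). The WT change of 0.34 (0.09 to 0.59) did not pass, at an adjusted p of 0.0631. Without WT lesion 1 it was 0.46 (adjusted p = 0.0270), and it was also called without KO lesion 3 (adjusted p = 0.0389) or KO lesion 4 (adjusted p = 0.0201), which enter only the shared spread.

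Fn1 encodes fibronectin, the adhesive glycoprotein of wounds and basement membrane borders. It was between 6.46 and 6.98 in WT controls, with a median of 6.68, and at 9.36, 9.38 and 9.59 in WT lesions. KO mice had Fn1 at 6.29, 6.37 and 6.97 in controls and at 9.45, 9.87, 10.15 and 10.26 in lesions. Lesions of both genotypes lay far above all controls, and the WT lesions were close to each other. Fn1 rose 6.76-fold in WT (log2 change 2.76, 95% interval 2.38 to 3.13, adjusted p = 7.96e-08) and 10.5-fold in KO (3.39, 2.99 to 3.79, adjusted p = 1.64e-08).

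Tnc encodes tenascin C, which weakens the attachment of cells to fibronectin and marks wound edges. It was between 6.20 and 6.74 in WT controls, with a median of 6.67, and at 8.94, 9.17 and 9.55 in WT lesions. In KO it was at 6.11, 6.32 and 6.82 in controls and at 9.14, 9.68, 9.69 and 10.03 in lesions. No lesion overlapped a control. Tnc rose 6.31-fold in WT (log2 change 2.66, 95% interval 2.24 to 3.08, adjusted p = 3.24e-07) and 9.29-fold in KO (3.22, 2.76 to 3.67, adjusted p = 8.13e-08).

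Sparc encodes osteonectin, a collagen-binding protein needed for collagen fibril assembly. It was between 7.18 and 7.64 in WT controls, with a median of 7.44, and at 8.82, 9.11 and 9.15 in WT lesions. KO mice had Sparc at 7.01, 7.18 and 7.76 in controls and at 8.58, 8.87, 9.03 and 9.44 in lesions. The lesions were above the controls without overlap and by similar amounts in both genotypes. Sparc rose 3.05-fold in WT (log2 change 1.61, 95% interval 1.23 to 1.99, adjusted p = 1.85e-05) and 3.16-fold in KO (1.66, 1.25 to 2.07, adjusted p = 1.85e-05).

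Postn encodes periostin, which supports collagen cross-linking and binds integrins. It varied most within groups, with SDs of 0.39 (control) and 0.70 (lesion) in WT and of 0.65 and 0.69 in KO. It was between 6.12 and 7.24 in WT controls, with a median of 6.45, and at 7.03, 7.64 and 8.43 in WT lesions. KO mice had Postn at 5.80, 6.01 and 7.01 in controls and at 6.95, 7.10, 7.59 and 8.47 in lesions. Postn was thus the called gene whose lesions overlapped the controls, through WT control 3 and KO control 3. It rose 2.26-fold in WT (log2 change 1.18, 95% interval 0.40 to 1.95, adjusted p = 0.0393) and 2.38-fold in KO (1.25, 0.41 to 2.09, adjusted p = 0.0332). Both calls rest on few arrays. The WT call was lost without WT control 1, 2, 4, 5 or 6 (adjusted p = 0.0741, 0.0637, 0.0566, 0.0687 and 0.0577), and without WT lesion 2 (log2 change 0.81, adjusted p = 0.235) or WT lesion 3 (adjusted p = 0.104). The KO call was lost without KO control 1 (adjusted p = 0.131) or 2 (adjusted p = 0.142), and without KO lesion 2 (adjusted p = 0.0637) or 3 (log2 change 0.94, adjusted p = 0.0812).

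Thbs1 encodes thrombospondin 1, an activator of latent TGF-β and inhibitor of vessel growth, which platelets also store. It was between 7.86 and 8.47 in WT controls, with a median of 8.24, and at 8.81, 8.86 and 9.09 in WT lesions. In KO it was at 7.92, 8.18 and 8.33 in controls and at 9.28, 9.71, 10.12 and 10.16 in lesions. Controls of both genotypes covered the same range, WT lesions lay just above it, and KO lesions lay above the WT lesions. Thbs1 rose 1.67-fold in WT (log2 change 0.74, 95% interval 0.34 to 1.13, adjusted p = 0.0125) and 3.19-fold in KO (1.67, 1.25 to 2.10, adjusted p = 2.60e-05). The WT call was lost without WT lesion 1 (log2 change 0.65, adjusted p = 0.0635). It was also lost against the 3 WT controls of the lower number series, which all lesions carry (0.51, adjusted p = 0.141).

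**Figure D2:**
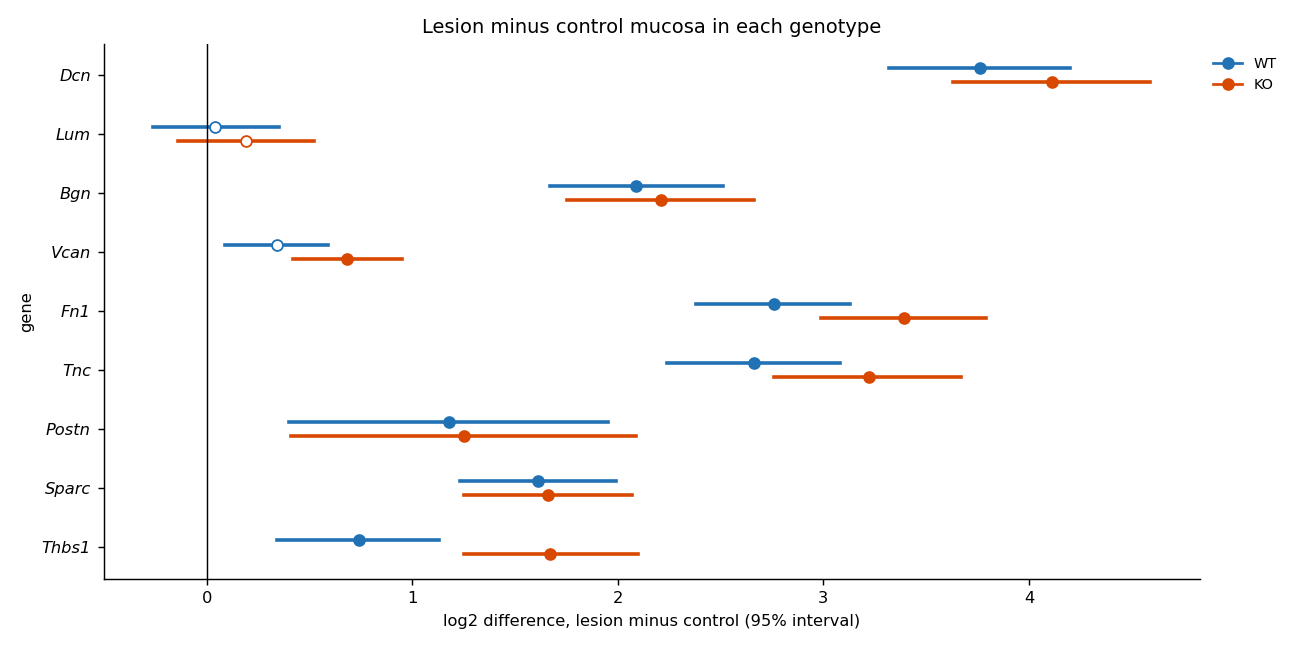
Log2 difference of lesion minus control for each gene, in WT (blue) and KO (orange). Points are limma estimates, lines are 95% intervals, and filled points were called at an adjusted p under 0.05. Dcn moved by 3.76 and 4.11, Lum by 0.04 and 0.19 with open points, and Vcan was open in WT only.

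The RefSeq promoter table (GRCm38.p6) held an entry for 5 of the 9 genes, Bgn, Vcan, Tnc, Postn and Sparc. The 250 bases before a listed start are shown for Tnc, Postn and Bgn, which rose in lesions of both genotypes, as examples of windows with and without TATAA. Tnc and Postn each have a pair of listed starts. The window is that of the outer start for Tnc and of the inner start for Postn. Capitals mark TATAA (the core of the TATA box) and GGGCGG (a GC box), searched on both strands, where the latter reads CCGCCC on the opposite strand.
Tnc, chr4:64047016-64047265, minus strand: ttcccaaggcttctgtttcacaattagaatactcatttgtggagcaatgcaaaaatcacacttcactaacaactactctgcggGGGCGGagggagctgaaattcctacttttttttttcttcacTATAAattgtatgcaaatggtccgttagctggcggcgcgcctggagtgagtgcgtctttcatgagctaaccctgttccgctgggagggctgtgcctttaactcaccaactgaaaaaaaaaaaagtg
Postn, chr3:54360857-54361106, plus strand: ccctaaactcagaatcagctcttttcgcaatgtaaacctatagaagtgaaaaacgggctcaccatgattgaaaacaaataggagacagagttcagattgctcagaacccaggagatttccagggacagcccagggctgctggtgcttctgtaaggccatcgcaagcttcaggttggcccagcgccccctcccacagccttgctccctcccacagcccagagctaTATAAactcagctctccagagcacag
Bgn, chrX:73483351-73483600, plus strand: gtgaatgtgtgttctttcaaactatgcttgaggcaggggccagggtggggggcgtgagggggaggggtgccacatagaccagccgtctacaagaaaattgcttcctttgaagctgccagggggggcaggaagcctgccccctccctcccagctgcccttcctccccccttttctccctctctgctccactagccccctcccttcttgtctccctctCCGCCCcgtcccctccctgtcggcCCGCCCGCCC
Counted back from the start, the Tnc window holds GGGCGG from position -167 and TATAA from -126, and the window of its inner start has TATAA from -27 and -205 and GGGCGG from -246. The Postn window holds TATAA from -26, so the inner starts of Tnc and Postn have it at nearly the same distance. The window of the outer Postn start holds none of the motifs searched. The Bgn window holds no TATAA and 3 GC boxes on the opposite strand, from -34, -10 and -6, of which the latter overlap each other. Among all 32851 windows of 250 bases in the table, 22.8% held TATAA, 32.7% held GGGCGG and 6.75% held TGANTCA, the AP-1 motif, which is in none of the windows of these 5 genes. The window of Sparc held none of the 3 motifs, and that of Vcan held 2 GC boxes.

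The genotypes were compared directly on each diet. On the control diet, 8 of 9 genes were lower in KO and Dcn was higher, by -0.25 to 0.05 on the log2 scale. The 9 genes had a median of -0.14, beside -0.02 over all genes. None was called, as none of the 30705 genes was (0% called; 641 genes and none of the 9 at an unadjusted p under 0.05). Dcn differed by 0.05 (95% interval -0.39 to 0.49), Fn1 by -0.14 (-0.52 to 0.23) and Thbs1 by -0.04 (-0.43 to 0.36). These intervals leave room for differences in either direction. No gene of the set had all KO controls above or all below the WT controls, which held for 0.195% and 1.20% of all genes. KO control 2 was lowest of the KO controls in 8 of the 9 genes, so their signs are not separate results.

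In lesions, 5 of 9 genes were higher in KO and 4 were lower, with a median difference of 0.18 beside 0.04 over all genes. None of the 9 was called, where 0.306% of all genes were (0.248% higher and 0.0586% lower; 94 genes, and 2 with replicate numbers as a block). At an unadjusted p under 0.05 there were 2 of the 9, Thbs1 and Fn1, and 4129 of all genes. Thbs1 was higher in every KO lesion than in every WT lesion, which held for 5.48% of all genes, and 3.91% were lower in every KO lesion. Thbs1 differed by 0.90 (1.86-fold, 95% interval of the log2 difference 0.47 to 1.32, adjusted p = 0.0763). It was called without KO lesion 3 (0.93, adjusted p = 0.0245), a fit that called 687 of all genes higher and 1010 lower. Thbs1 was also called without KO lesion 4 (1.07, adjusted p = 0.0352), where 45 of all genes were higher and 7 lower. Array weights called it too (0.84, adjusted p = 0.0459), with 449 of all genes higher and 265 lower. With replicate numbers as a block it was not called (1.05, adjusted p = 0.0842).

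The other genes differed by less between lesions. Fn1 was higher in KO by 0.49 (95% interval 0.09 to 0.89, adjusted p = 0.286), Tnc by 0.41 (-0.04 to 0.86, adjusted p = 0.414) and Dcn by 0.40 (-0.08 to 0.87, adjusted p = 0.460). For each of these 3, KO lesion 4 lay within the range of the WT lesions. Vcan differed by 0.18 (-0.08 to 0.45), Lum by -0.02 (-0.35 to 0.31), Sparc by -0.05 (-0.45 to 0.36), Bgn by -0.10 (-0.55 to 0.36) and Postn by -0.18 (-1.02 to 0.66).

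The interaction, the KO response minus the WT response, was above 0 for all 9 genes and called for none (0.00326% of all genes were called). These signs are not separate results, since the same arrays were often highest or lowest across the genes. The interaction ranged from 0.05 to 0.94, with a median of 0.34 beside 0.06 over all genes. Thbs1 had 0.94 (95% interval 0.35 to 1.52, adjusted p = 0.396) and Fn1 0.63 (0.08 to 1.18, adjusted p = 0.413), the 2 genes with an unadjusted p under 0.05, as 3423 of all genes had. Tnc had 0.56 (-0.06 to 1.17), Dcn 0.35 (-0.30 to 1.0), Vcan 0.34 (-0.02 to 0.71), Lum 0.15 (-0.30 to 0.60), Bgn 0.11 (-0.51 to 0.73), Postn 0.07 (-1.07 to 1.21) and Sparc 0.05 (-0.50 to 0.61). For Lum, Bgn, Postn and Sparc the interaction was above 0 although the mean of their lesions was no higher in KO. Their KO controls differed from WT controls by -0.17, -0.21, -0.25 and -0.10, none of them called. The interaction uses the same arrays as both responses and shares their link to the number series.

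**Figure D3:**
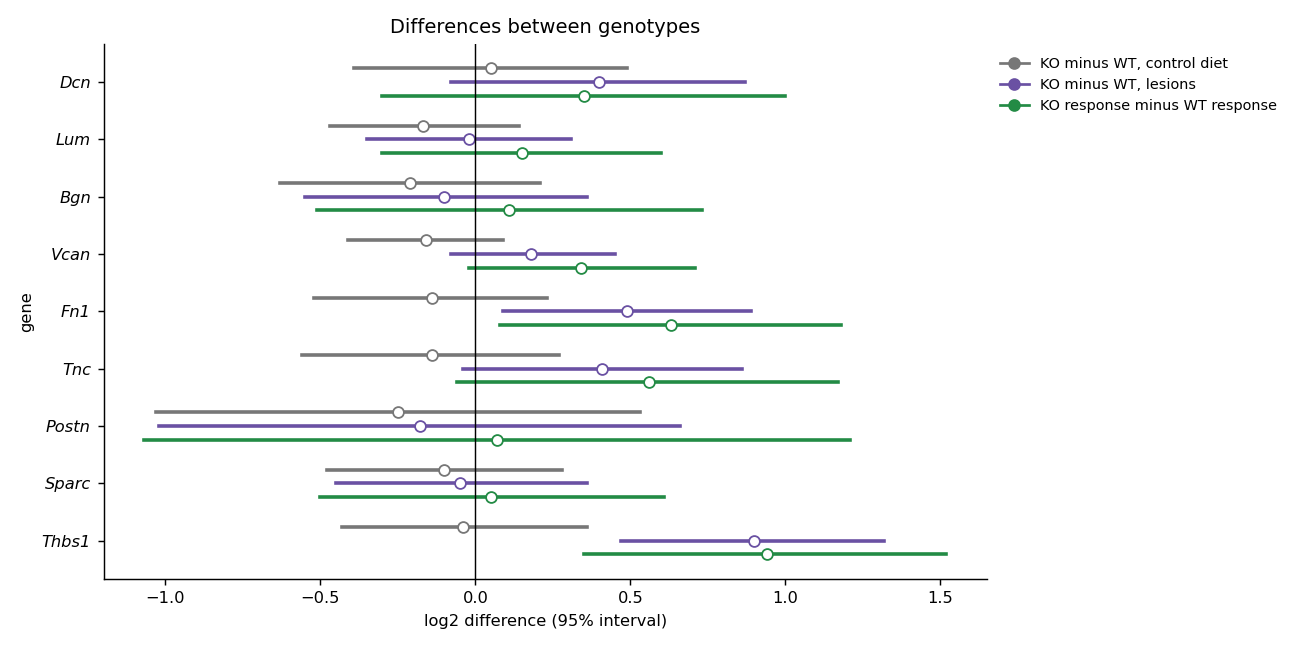
Log2 differences between genotypes for each gene, with 95% intervals: KO minus WT on the control diet (grey), KO minus WT in lesions (purple) and the KO response minus the WT response (green). Open points were not called, which holds for all of them. Only for Fn1 and Thbs1 do the purple and green intervals lie above 0.

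The same arrays were often highest or lowest of their group. KO control 3 was highest of the 3 KO controls in 9 of 9 genes, and KO control 2 was lowest in 8. WT control 3 was highest of the WT controls in 6 of 9. KO lesion 4 was lowest of its group in 6 genes and WT lesion 1 in 6, while KO lesions 2 and 3 shared the highest place, in 5 and 4 genes. Averaged over the 9 genes, WT arrays ran from 6.31 to 6.76 on control feed and from 7.97 to 8.32 in lesions, and KO arrays from 6.08 to 6.70 and from 7.99 to 8.65.

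Other matrix genes were read from lists of the same families. Beside their counts, 6.98% of all genes were called higher and 8.37% lower in WT, and 8.99% and 12.1% in KO. Of 12 further small leucine-rich proteoglycans, none rose in either genotype. Leaving out an array gave 0 to 1 called higher in KO and 0 in WT. The list includes Kera and Epyc, whose rows averaged under the median of all rows, where RMA shrinks differences. Prelp, which anchors basement membranes to connective tissue, fell by 0.98 in KO (adjusted p = 0.0120) and had a change of -0.43 in WT (adjusted p = 0.253). Its KO call was lost without KO control 1 (adjusted p = 0.0657) or KO control 2 (adjusted p = 0.0511). The list median was -0.12 in WT and -0.07 in KO, beside the rises of Dcn and Bgn above. Of 13 genes for hyaluronan and its partners, 1 rose in WT and 3 rose in KO, and 12 and 10 were not called. The list medians were -0.04 in WT and 0.05 in KO, beside -0.06 and 0.01 over all genes. Cd44, the hyaluronan receptor, rose in WT (0.82, adjusted p = 0.00405) and in KO (1.50, adjusted p = 3.98e-05). In KO, Tnfaip6, which links hyaluronan to inter-alpha-inhibitor chains, rose by 1.93 (adjusted p = 7.45e-04) and Has2, a hyaluronan synthase, by 0.61 (adjusted p = 0.00547). Tnfaip6 was at 0.50 in WT (adjusted p = 0.334) and Has2 at 0.20 (adjusted p = 0.344).

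Of 17 further matricellular genes, 4 rose and 2 fell in WT, and 6 rose and 3 fell in KO, with list medians of -0.05 and 0.10. Tgfbi, which encodes a collagen- and integrin-binding relative of periostin, rose by 2.85 in WT and 3.25 in KO (adjusted p = 6.89e-08 and 2.71e-08). Fstl1, a secreted glycoprotein of the osteonectin family, rose by 1.64 and 1.76 (adjusted p = 2.98e-07 and 2.51e-07). Ccn1, an integrin ligand induced in wounds, rose by 1.43 and 2.78 (adjusted p = 0.00234 and 1.14e-05). Ccn3 went the other way. It fell by 2.73 in WT and by 3.18 in KO (adjusted p = 8.60e-04 and 3.13e-04), from 10.90 to 11.32 in WT controls to 8.32 to 8.54 in WT lesions.

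Of 13 measured basement membrane glycoproteins, 9 rose in WT and 9 in KO, with medians of 0.48 and 0.61, and none fell. Nid1, which joins laminin to collagen IV, rose by 2.16 and 2.28 (adjusted p = 5.77e-07 and 5.11e-07). The laminin chains Lamc1 and Lamb1 rose by 1.52 and 1.10 in WT and by 1.93 and 1.33 in KO (adjusted p at most 9.66e-05). Of 15 measured elastic fibre genes, 4 rose in WT and 6 in KO, by smaller amounts. Fbln1, which binds fibronectin and elastic fibres, rose by 0.71 and 0.66 (adjusted p = 1.38e-04 and 3.03e-04). Fbln2 rose by 0.25 and 0.49, and Ltbp1, which holds latent TGF-β in the matrix, by 0.36 and 0.32. Emilin2, an elastin-associated glycoprotein, rose in KO by 0.83 and was at 0.31 in WT (adjusted p = 0.0559), and Fbln5 rose in WT by 0.30 and was at 0.26 in KO (adjusted p = 0.0602). The WT call of Fbln2 was lost without WT control 4 or 5 or any of the 3 WT lesions (adjusted p from 0.0549 to 0.111), and that of Fbln5 without WT control 5 or WT lesion 1 or 2 (adjusted p from 0.0539 to 0.107).

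Of 17 receptors for these proteins, 10 rose in WT and 13 in KO and none fell, with medians of 0.49 and 0.69. Itgav, the αv integrin that binds fibronectin and periostin, rose by 1.68 and 2.36 (adjusted p = 1.97e-07 and 1.27e-08). Its epithelial partner Itgb6 rose by 1.15 and 1.46 (adjusted p = 1.78e-05 and 2.27e-06), and Cd47, the thrombospondin 1 receptor, by 1.40 and 1.45 (adjusted p = 5.56e-08 and 4.87e-08). Of 19 measured genes that build chondroitin and dermatan sulfate chains, 4 rose and 1 fell in WT, and 6 rose and 3 fell in KO. The list medians were -0.01 in WT and 0.03 in KO, beside -0.06 and 0.01 over all genes, so the list did not rise as a whole. The genes named here had the largest called changes, and all of them rose. Chsy1, which extends chondroitin chains, rose by 0.85 and 0.99. Csgalnact1, which starts them, rose by 0.55 and 0.90, the sulfotransferase Chst15 by 0.55 and 0.84, and Dse, which makes dermatan sulfate, by 0.68 and 0.84. The sulfotransferase Chst11 rose in KO by 1.11 (adjusted p = 8.79e-04) and was at 0.35 in WT (adjusted p = 0.234). None of the 105 genes on these lists was called between KO and WT lesions.

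**Figure D4:**
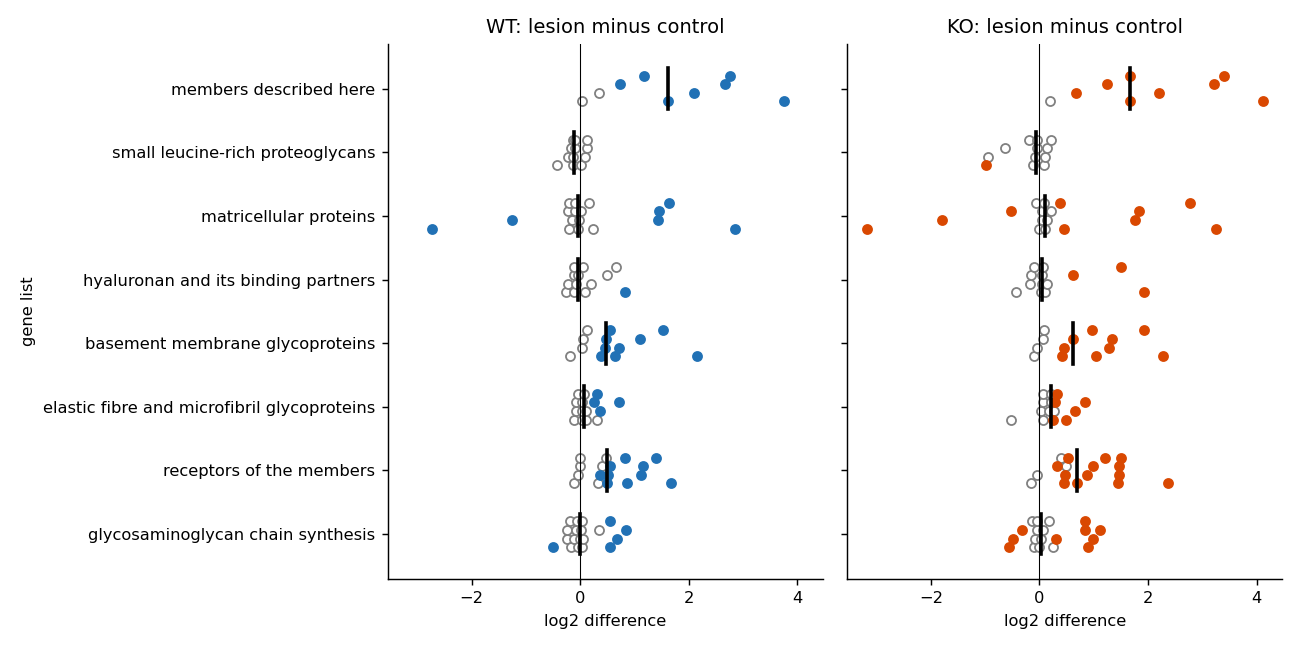
Log2 difference of lesion minus control for the 9 genes and for 7 lists of related genes, in WT (left) and KO (right). Each point is a gene, filled where called, and the vertical bar is the list median. The 9 genes have medians of 1.61 and 1.67, the basement membrane list 0.48 and 0.61, and the small leucine-rich proteoglycan list -0.12 and -0.07.

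Of 10 cell type marker lists, those of fibroblasts, macrophages and neutrophils had the most genes called higher in lesions. The shares of all genes were 6.98% higher and 8.37% lower in WT, and 8.99% and 12.1% in KO. In bulk mucosa, a change in the number of cells of a type and a change in RNA per cell cannot be told apart. Of 9 measured fibroblast markers, 4 rose in WT and 5 rose and 1 fell in KO. Their mean went from 5.61 to 5.74 in controls to 6.07 to 6.21 in lesions of WT mice, and from 5.54 to 5.79 to 6.02 to 6.31 in KO. Pdpn rose by 1.86 and 2.35 and Pdgfrb by 0.81 and 0.75, while Dpt was at 0.83 and 0.78 without a call. Fap was the marker that fell in KO (-0.41, adjusted p = 0.0141), and it was at -0.29 in WT (adjusted p = 0.0664). Pi16 rose in KO by 0.35 and was at 0.01 in WT, and Twist1 was at -0.07 and 0.04 without a call. Fap and Mfap5 lay under the median of all rows in every group. The smooth muscle mean spanned 5.98 to 6.87 in controls and 6.37 to 6.46 in lesions of WT mice, and 6.0 to 6.48 and 6.14 to 6.89 in KO, with none of 8 genes called. The endothelial mean was 5.52 to 5.70, 5.77 to 5.95, 5.33 to 5.74 and 5.57 to 6.13 in the same order, with 1 of 8 genes higher in WT and 2 in KO.

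The mean of 8 macrophage and monocyte markers went from 5.67 to 6.08 in WT controls to 7.12 to 7.40 in WT lesions and from 5.84 to 5.95 in KO controls to 7.30 to 7.61 in KO lesions. All 8 were called in WT and 7 in KO. Neutrophil markers went from 4.81 to 5.14 to 7.31 to 8.10 in WT and from 4.8 to 5.05 to 8.39 to 9.72 in KO, with 6 of 7 called in each. Between lesions, 3 of the 7 neutrophil genes, Csf3r, Cxcr2 and Retnlg, were called higher in KO, by 1.36, 1.68 and 2.29 (adjusted p = 0.0251, 0.0445 and 0.0493). The other 4 were not called. S100a8 and S100a9 differed by 1.55 and 1.77 (adjusted p = 0.106 and 0.0902), Ly6g by 0.96 (adjusted p = 0.435) and Mpo by 0.05 (adjusted p = 0.759). The share of all genes called higher in KO lesions was 0.248%. None of Csf3r, Cxcr2 and Retnlg was called with replicate numbers as a block (1.38, 1.63 and 2.08, adjusted p = 0.0999, 0.162 and 0.181). With only the compared groups they were not called either (adjusted p = 0.445 for each). The Csf3r call was lost without KO lesion 1 or 2 or any WT lesion (adjusted p from 0.0510 to 0.141). The calls of Cxcr2 and Retnlg were lost without any array other than KO lesion 3 (adjusted p from 0.0592 to 0.270). The mean of 6 platelet markers spanned 5.49 to 5.70 in WT controls and stood at 5.55 in all 3 WT lesions. It spanned 5.5 to 5.60 in KO controls and 5.60 to 5.83 in KO lesions. Of them, Pf4 rose by 0.30 and 0.34, Ppbp rose in KO by 0.61 and Gp5 fell by 0.22 in WT, with no call between lesions. Of 6 mesothelial markers none rose, Upk1b fell by 0.25 and 0.26 and Lrrn4 by 0.23 in WT, and no adipocyte (5) or enteric glia (4) marker was called in either response. The part of these cell types in the matrix gene changes was not tested.

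**Figure D5:**
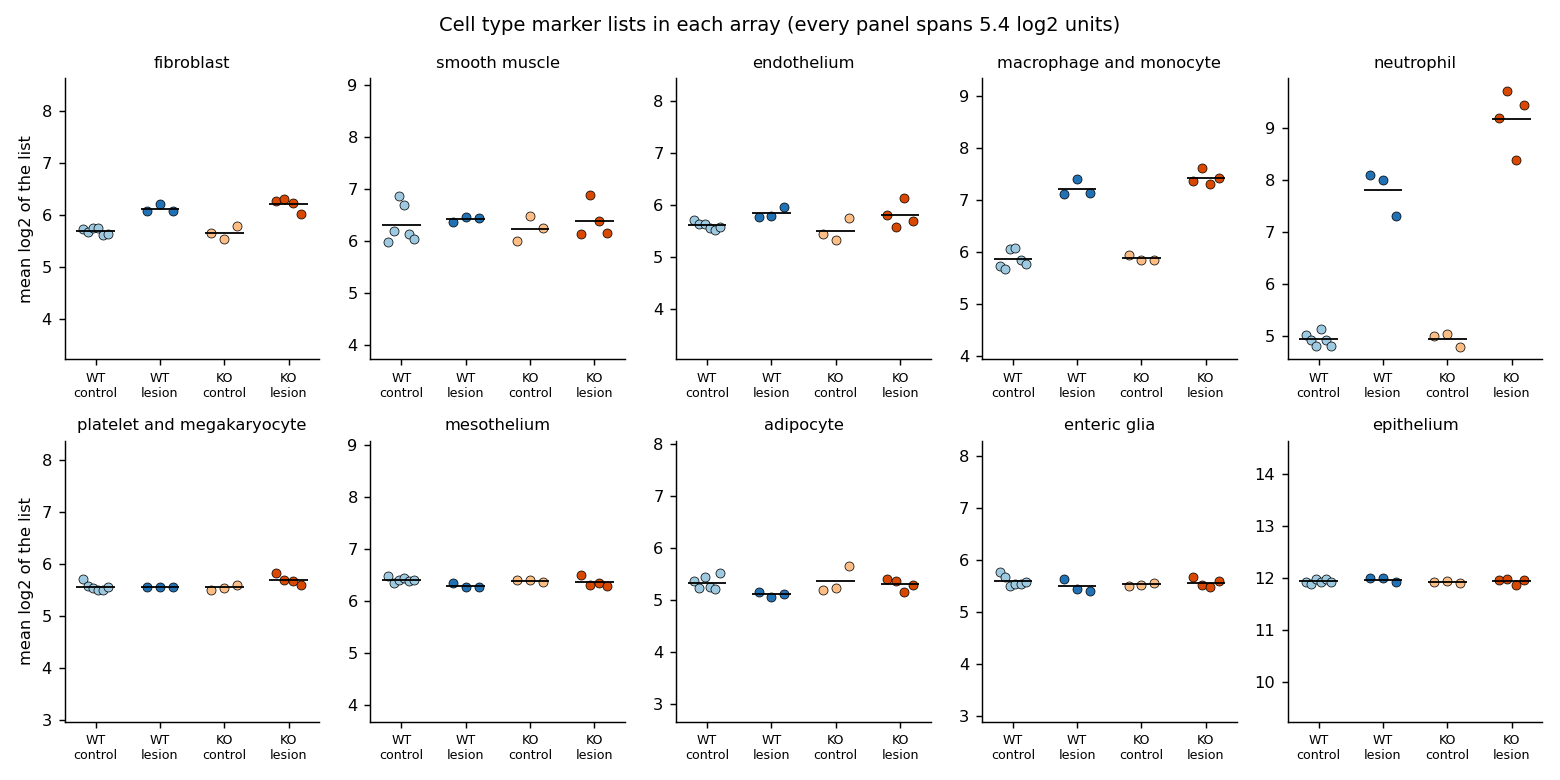
Mean log2 level of 10 cell type marker lists in each array, by genotype and diet. Points are arrays, lines are group means, and every panel spans the same number of log2 units. Neutrophil markers stood at 7.31 to 8.10 in WT lesions and 8.39 to 9.72 in KO lesions, and the fibroblast mean at 6.07 to 6.21 and 6.02 to 6.31.

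For each matrix gene, the gene outside the set with the most similar pattern over the 16 arrays was found by Pearson's r. These values are a description, since all 16 arrays share the split into lesions and controls. Dcn was most like Mmp13, a collagenase (r = 0.994), Bgn like Igfbp7 (0.994), and Sparc also like Igfbp7 (0.988), which encodes a secreted vessel-associated protein. Fn1 was most like the laminin chain Lamc1 (0.993), Tnc like Tgfbi (0.992), Postn like the laminin chain Lama4 (0.950), Vcan like Col6a3, a collagen VI chain (0.949), and Thbs1 like Plat, tissue plasminogen activator (0.963). Lum reached 0.782, with Rpph1, the RNA of ribonuclease P, and its closest gene within the set was Postn at 0.371. The other 8 genes had a closest gene within the set at 0.875 to 0.995.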

How the data were processed

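Per the labels' protocols, biotin-labelled total RNA of each mucosal sample was hybridised to 1 array. The deposited values are log2 expression made by the authors with RMA and Affymetrix Power Tools 1.16.1, per the submitters' processing notes. The genome build of that step is not given in the sources used here. Of 72688 rows, 31261 carried 1 symbol in the platform's probe-to-gene table, which gave 30705 genes. Symbols were updated through the RefSeq table of GRCm38.p6 (1199 rows), and for 441 genes with several rows the row with the highest mean was used. Spp1 was not listed and is not analysed here.

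Groups came from the genotype and diet labels. limma 3.58.1 (R 4.3.3) fitted 4 group means to all 16 arrays with empirical Bayes moderation. Tests were two-sided, with Benjamini-Hochberg adjustment over 30705 genes, a threshold of 0.05 and 95% intervals from the moderated fit. The script was tested on simulated data. The number of arrays limits the precision.

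The members and lists were chosen with earlier results of these data known. Named genes are the members, Mcc, up to 3 called genes per list and response with the largest change, and the most similar gene to each member, without model names. Markers are named beside them, and Kera and Epyc for their position.

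Replicate numbers in the labels were checked for pairing over all genes. Between lesions, samples of the same number deviated together (r = 0.465, 0.296 and 0.540). In the WT response r was also positive, in the last pair only weakly (0.347, 0.171 and 0.097). It was negative in the KO response (-0.145, -0.174 and -0.30) and on the control diet (-0.321, -0.336 and -0.243). The main fit did not assume pairing, and the replicate block was fitted as an alternative. There were 28 alternatives, 16 of which left out 1 array. The other 12 changed the block, moderation, weights, filter, row choice, scaling, samples or number series.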

Additional observations from a re-analysis of the deposited data

Results flagged for a closer look

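Among 68 groups of 4 or 6 arrays over 34 named genes, 2 held an array that stood apart from its group, where chance gives about 1 group in 20. Vcan was at 5.41 in WT control 6, below the other WT controls at 5.53 to 5.60. Csgalnact1 was at 4.72 in WT control 1, above the other WT controls at 4.52 to 4.59. No interaction of a named gene was called.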

How the results depend on the processing

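Over the 28 alternatives, 16 of which left out an array, Dcn, Bgn, Fn1, Tnc and Sparc were called higher in every fit of either response. Leaving out an array gave 6 to 8 called genes in WT and 7 to 8 in KO, 0 on the control diet and in the interaction, and 0 to 1 between lesions. Array weights also called 1 gene between lesions, Thbs1, for a cause that was not tested.

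The replicate block left 5 genes called in WT: Postn was at 1.06 (adjusted p = 0.0625) and Thbs1 at 0.49 (adjusted p = 0.0532). It changed no call in KO. With the number series as a covariate, Postn and Thbs1 were at 1.13 (adjusted p = 0.104) and 0.51 (adjusted p = 0.0874) in WT. Postn in KO had an adjusted p of 0.335. Over all genes the covariate fit called 1389 higher and 1125 lower in KO, beside 2760 and 3712 in the main fit. Within the lower series, Postn in WT had an adjusted p of 0.150. Postn in KO was not called with only the compared groups (adjusted p = 0.0878) or the series as a random block (adjusted p = 0.0566). Vcan in WT was called with array weights (0.38, adjusted p = 0.0249) and only the compared groups (adjusted p = 0.0281).

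Reversed signs were all of uncalled differences. On the control diet Dcn was at -0.01 under the block, the covariate and the higher series only, and at -0.08 with array weights, and Thbs1 was at 0.19 under the covariate and the higher series only. Lum was at -0.05 in WT and 0.07 between lesions with array weights. Sparc was at 0.01 between lesions after repeated quantile normalization and at -0.01 in the interaction with array medians aligned. Leaving out an array gave, on the control diet, -0.11 to 0.16 for Dcn, -0.35 to 0.05 for Lum, -0.35 to 0.01 for Tnc, -0.32 to 0.06 for Sparc and -0.13 to 0.07 for Thbs1. Between lesions it gave -0.14 to 0.14 for Lum, -0.25 to 0.04 for Bgn, -0.51 to 0.19 for Postn and -0.20 to 0.09 for Sparc. In the interaction it gave -0.06 to 0.34 for Lum, -0.04 to 0.25 for Bgn, -0.26 to 0.44 for Postn and -0.10 to 0.27 for Sparc. Lum ran from -0.11 to 0.16 in WT and from -0.02 to 0.38 in KO. Mcc between lesions had an adjusted p of 0.205 with only the compared groups. Of the related genes named, Chst11, Has2, Ltbp1, Prelp and Tnfaip6 lost their KO call under the covariate (adjusted p from 0.0549 to 0.340). Fbln2 and Fbln5 lost their WT call under the block, the covariate and the lower series (adjusted p from 0.105 to 0.215). The absence of a detection call limits what Lum and other rows under the median of all rows can show.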
